A study of Mus musculus with 36 samples.

Results

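Heat shock proteins and related chaperones were followed in the quadriceps of sarcoglycan-deficient mice from 1 to 20 weeks of age. The set was given by gene symbol and held 10 genes, of which 7 had an oligonucleotide with that symbol in the array annotation (*Hspb1*, *Cryab*, *Hspa8*, *Dnajb1*, *Hsph1*, *Hsp90b1* and *Hspd1*), among 6540 genes with such an oligonucleotide in all. *Hspa8* was measured by 2 different oligonucleotides, so 8 of 8129 oligonucleotides are described. No filter on low values was used, and all 8 entered every test. *Hspb2*, *Hspa5* and *Hspa1b* matched no annotation symbol and are not described.

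The series comprises the BSG strain, deficient for beta-sarcoglycan, and the GSG strain, deficient for gamma-sarcoglycan, both muscle membrane proteins, so no strain with an intact sarcoglycan complex enters the comparisons. No treatment was given, and the same 9 ages were taken in each strain, namely 1, 2.5 and 4 weeks, every 2 weeks from 6 to 14 weeks, and 20 weeks. The 36 mice, 2 per age and strain, formed 4 closed loops of 9 dual-channel arrays, 2 loops per strain. The paper states that littermates served for most time points. By its account the hour of sacrifice was shared within a strain and age but varied between them, so it cannot be told apart from age. Each array set the amplified RNA of a mouse (Cy5) against that of the mouse of the preceding age in its loop (Cy3), and the array that closed the loop set 1 week against 20 weeks. Values are log2 ratios, so a gene's change with age can be read but not its level, and neither the defining markers of the tissue nor a difference of level between the strains could be checked. The base of the logarithm and the ratio's direction are not stated, and the direction used here (later over earlier age) is likely. It rests on the design and on 4 of the 5 measured genes of newborn muscle, since *Dlk1* (log2 ratio of 20 weeks to 1 week -3.05 ± 0.24 (SE) in BSG and -3.54 ± 0.24 in GSG), *H19*, *Meg3* and *Mest* all fell in both strains with it. The fifth, *Igf2*, did not pass the test (0.21 ± 0.23 in BSG and 0.03 ± 0.23 in GSG).

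Chaperones hold other proteins in a foldable state. The small heat shock proteins (*Hspb1*, *Cryab*) bind unfolding proteins without ATP and, in muscle, protect the Z disc and the filaments. The HSP70 system (*Hspa8*, with the J-domain partner *Dnajb1* and the exchange factor *Hsph1*) folds and releases clients by ATP hydrolysis. *Hsp90b1* is the HSP90 of the endoplasmic reticulum and *Hspd1* the chaperonin of the mitochondrial matrix. Heat shock factors induce many of these genes through heat shock elements, inverted repeats of a short unit, whereas reticulum chaperones carry endoplasmic reticulum (ER) stress elements.

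These elements were looked for in the promoter windows (250 bases before to 50 after a start) that RefSeq gives on build GRCm38.p6, where 7 of the 10 genes matched by symbol. Searched on both strands were heat shock elements of 2 units (GAANNTTC or TTCNNGAA), which 15.1% of all 32851 windows hold, of 3 units (GAANNTTCNNGAA or TTCNNGAANNTTC, which contain the 2-unit form), held by 0.603%, and the ER stress element (CCAAT, 9 bases, CCACG), held by 0.119%. The windows below were chosen because their genes belong to different systems and each holds at least 1 of the elements. They lie at chr5:135887669-135887968 (plus strand, *Hspb1*), chr5:149636287-149636586 (minus strand, *Hsph1*), chr10:86705395-86705694 (minus strand, *Hsp90b1*) and chr1:55087883-55088182 (minus strand, *Hspd1*), and capitals mark the matched elements.
Hspb1: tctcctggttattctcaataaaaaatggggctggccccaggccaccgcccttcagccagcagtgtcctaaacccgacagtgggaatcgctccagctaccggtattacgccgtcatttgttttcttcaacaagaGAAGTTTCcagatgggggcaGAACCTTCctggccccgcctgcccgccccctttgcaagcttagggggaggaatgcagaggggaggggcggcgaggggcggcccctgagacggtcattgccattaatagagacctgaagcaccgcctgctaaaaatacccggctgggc
Hsph1: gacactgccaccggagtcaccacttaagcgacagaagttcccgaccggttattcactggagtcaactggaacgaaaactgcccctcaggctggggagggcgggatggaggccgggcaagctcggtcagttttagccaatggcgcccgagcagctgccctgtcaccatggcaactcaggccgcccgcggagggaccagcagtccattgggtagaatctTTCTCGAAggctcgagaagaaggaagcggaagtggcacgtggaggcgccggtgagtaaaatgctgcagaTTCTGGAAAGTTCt
Hsp90b1: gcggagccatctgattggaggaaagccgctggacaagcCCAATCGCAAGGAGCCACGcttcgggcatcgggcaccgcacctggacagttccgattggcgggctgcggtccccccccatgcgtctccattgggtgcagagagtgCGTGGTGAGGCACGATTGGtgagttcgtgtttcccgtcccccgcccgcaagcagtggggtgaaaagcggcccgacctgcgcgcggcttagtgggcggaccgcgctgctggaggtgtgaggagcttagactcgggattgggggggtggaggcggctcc
Hspd1: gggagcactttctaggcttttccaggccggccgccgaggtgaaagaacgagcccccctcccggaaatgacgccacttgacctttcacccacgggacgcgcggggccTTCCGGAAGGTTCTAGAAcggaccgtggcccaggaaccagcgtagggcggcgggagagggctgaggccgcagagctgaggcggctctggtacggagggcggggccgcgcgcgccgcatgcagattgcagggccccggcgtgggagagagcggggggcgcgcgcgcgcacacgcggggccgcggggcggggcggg
The *Hspb1* window held 2 elements of 2 units. The *Hsph1* window held a separate element of 2 units before the start and an element of 3 units after it. The *Hspd1* window held overlapping elements of 3 units, and the *Hsp90b1* window 2 ER stress elements, 1 on each strand. The window of *Hspa5*, the HSP70 of the endoplasmic reticulum, held 1 ER stress element, that of *Hspa1b*, the stress-inducible HSP70, 1 heat shock element of 2 units, and the 2 windows of *Dnajb1* none of the elements, nor did the other *Hspd1* window. A match is a run of letters and does not show that a factor binds there.

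The loops differed in quality before any gene is considered. The 2 spots of each oligonucleotide correlated at a median r of 0.316 and 0.583 over the arrays of the first and the second loop of BSG and 0.364 and 0.645 over those of GSG. In the same order, 4, 0, 4 and 1 arrays lay below 0.3. In BSG, 5.2% of all oligonucleotides lay on opposite sides of 0 in the loops at every later age, against 2.01% in GSG. Among the lists of other cell types, macrophage markers had a median log2 ratio of 0.775 in BSG and 1.01 in GSG at 20 weeks (0 and 6 of 14 rose), fibroblast matrix genes -0.285 and -0.709 (1 and 3 of 12 fell), slow fibre genes -0.86 and -1.095 (in GSG 1 of 7 rose and 2 fell, in BSG 1 fell), fast fibre genes 0.191 and 0.385 (0 of 7 called), and newborn muscle genes -2.01 and -2.66 (4 of 5 fell in each). Their part in the chaperone values was not tested. In whole muscle, fewer cells of a type and less RNA per cell cannot be told apart.

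None of the 8 oligonucleotides passed the test at any age in either strain (limma, adjusted over all 8129 oligonucleotides at 0.05). At 20 weeks 1.28% of all oligonucleotides were called in BSG and 3.74% in GSG, so a count of 0 among 8 is close to that background and says nothing particular about the members. At the earlier ages 0.0123% to 0.0246% were called in BSG. In GSG the shares were 0.0984% at 2.5 weeks, 0% at 4 and 6 weeks and 0.0123% at 8 weeks. At 10, 12 and 14 weeks they were 0.0492%, 0.135% and 0.357%. Only 2.5 and 20 weeks share an array with 1 week, so changes at the ages between are less precise. For *Hspb1* the SE was 0.337 at 2.5 and 20 weeks and 0.532 at 8 and 10 weeks. The shares called therefore do not measure how much changed at each age. The moderated F test over the 8 later ages, which called 0.0984% in BSG and 0.59% in GSG, called none of the members either, and their adjusted p was 1 in both strains. Of the 128 member tests (8 oligonucleotides, 8 ages, 2 strains), 3 lay under 0.05 before adjustment, and after it the lowest p was 0.209. The number of calls in BSG at 20 weeks, 104 with both loops, changed when either BSG loop was left out. Each BSG age is then 1 mouse, with no spread between BSG mice of an age, so such counts do not describe the strain.

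For 5 of the 8 oligonucleotides the spread between arrays was wide. The residual SD of *Hspa8* (M19141) ranked at the 98.9th percentile of all oligonucleotides, that of *Hspd1* at 97.7, *Cryab* at 95.3, *Hsp90b1* at 95.2 and *Hspb1* at 88.8. *Dnajb1* stood at 62.8, *Hsph1* at 27.5 and the other *Hspa8* oligonucleotide (M13967) at 26.2. With a dye term in the fit, which takes up an offset between the channels, *Hspa8* (M19141), *Hsp90b1*, *Hspd1* and *Cryab* still ranked at 98.7, 97.1, 96.4 and 90.8, and *Hspb1* at 79.1. For the genes of wide spread the 2 spots of an array gave similar values. For *Hspa8* (M19141) the 2 spots correlated at r = 0.931 over the 36 arrays, for *Hsp90b1* at 0.834, *Hspd1* at 0.809, *Hspb1* at 0.721 and *Cryab* at 0.681, against a median of 0.322 over all oligonucleotides, and on the 27 arrays with concordant duplicates at 0.982, 0.982, 0.914, 0.933 and 0.824. Of the 19 member values beyond 1 log2 unit on a single array, 4 came from the 9 arrays with discordant duplicates.

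**Figure D1:**
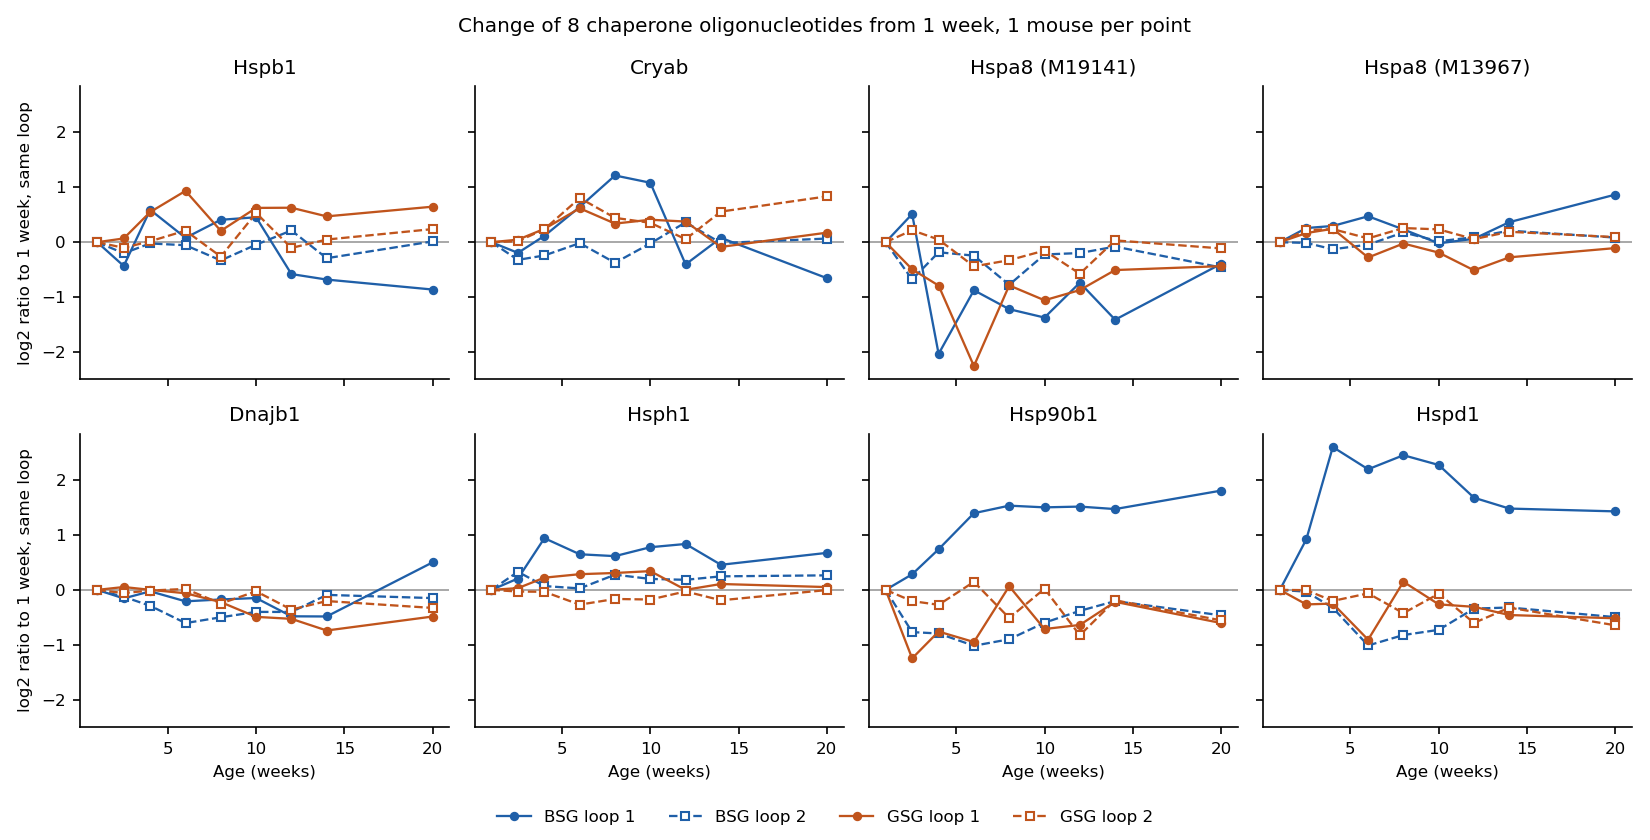
Log2 ratio to the 1-week mouse of the same loop (y axis) against age in weeks (x axis) for the 8 oligonucleotides, 1 mouse per point, with BSG in blue, GSG in orange, loop 1 filled and loop 2 open. *Hsp90b1* and *Hspd1* lay above 0 throughout BSG loop 1 and below 0 throughout BSG loop 2, and *Hsph1* lay above 0 in all 16 later BSG mice.

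Among the small heat shock proteins, *Hspb1* (HSP27) stood at -0.86 in BSG loop 1 and 0.01 in BSG loop 2 at 20 weeks, and at 0.645 and 0.24 in the GSG loops. The mice of the strains did not overlap, with both GSG mice above both BSG mice. The fitted change was -0.42 ± 0.34 (SE, 95% interval -1.12 to 0.27) in BSG and 0.44 ± 0.34 (-0.25 to 1.135) in GSG, a difference of 0.865 ± 0.48 with an unadjusted p of 0.0816 and an adjusted p of 0.778 (limma). Over all later ages BSG loop 1 ran from -0.86 to 0.59 (median -0.18) and loop 2 from -0.33 to 0.21 (median -0.05), while GSG loop 1 ran from 0.07 to 0.93 (median 0.59) and loop 2 from -0.26 to 0.53 (median 0.03). In GSG 13 of 16 later mice thus lay above the 1-week mouse of their loop, and in BSG 6 of 16. The 8 later mice of a loop share that 1-week mouse, so such counts, here and for every gene below, are not of 16 separate observations.

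*Cryab* (alpha B-crystallin), which works with *Hspb1* at the Z disc, had the same order of strains. At 20 weeks the BSG mice stood at -0.65 and 0.07, and the GSG mice at 0.17 and 0.83, again without overlap. The changes were -0.29 ± 0.40 (95% interval -1.11 to 0.525) and 0.50 ± 0.40 (-0.32 to 1.32), and the difference of 0.80 ± 0.56 did not pass the test (adjusted p = 0.842, limma). Without the arrays of discordant duplicates the GSG changes were smaller, 0.11 for *Hspb1* and 0.12 for *Cryab*. The BSG changes were then -0.46 and -0.315. Within BSG the loops parted most at 8 weeks, where the mice stood at 1.21 and -0.37, and 9 of the 16 later mice lay below 0. In BSG loop 1 *Cryab* read 0.715 on the array of 8 against 6 weeks and -1.34 on that of 12 against 10 weeks. Both arrays had discordant duplicates (r = 0.244 and -0.096 over all oligonucleotides). In GSG the loops ran closer, with a median gap of 0.145 between the mice of an age, and 15 of 16 later mice lay above 0 (loop 1 from -0.09 to 0.62, loop 2 from 0.02 to 0.83).

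The constitutive HSP70, *Hspa8*, gave different pictures with its 2 oligonucleotides. The M19141 oligonucleotide lay below the 1-week mouse in 15 of 16 later BSG mice and 13 of 16 GSG mice. Its lowest values were -2.03 at 4 weeks in BSG loop 1 and -2.25 at 6 weeks in GSG loop 1, where the mice of loop 2 stood at -0.18 and -0.44. By 20 weeks its mice stood at -0.39 and -0.46 in BSG and -0.435 and -0.11 in GSG, and the strains overlapped. The changes of -0.43 ± 0.51 (95% interval -1.47 to 0.62) and -0.27 ± 0.51 (-1.32 to 0.77) had adjusted p-values of 0.92 in both strains.

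The M13967 oligonucleotide had a narrower range, and 12 of 16 later BSG mice and 10 of 16 GSG mice lay above 0. Its BSG mice stood at 0.86 and 0.08 at 20 weeks and its GSG mice at -0.11 and 0.09, and the later mice ran from -0.13 to 0.86 in BSG and from -0.51 to 0.26 in GSG. The change of 0.47 ± 0.17 in BSG had the smallest adjusted p of any member test (unadjusted p = 0.00903, adjusted p = 0.209, limma), and in GSG it was -0.01 ± 0.17. The BSG value rested on loop 1. With 1 of the 2 loops left out, the change is by construction that of the other loop's mouse, 0.86 without BSG loop 2 and 0.08 without BSG loop 1. Its spots correlated at r = 0.485 over the arrays. The pair of oligonucleotides correlated with each other at r = 0.562 and 0.31 in the 2 sets of 16 arrays that share no mouse, and which of them follows the *Hspa8* transcript was not tested.

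*Dnajb1* (HSP40), the J-domain protein that hands clients to HSP70, lay below 0 in 15 of 16 later BSG mice and 13 of 16 GSG mice. The BSG mice ran from -0.48 to 0.50 in loop 1 and from -0.60 to -0.09 in loop 2, and the GSG mice from -0.74 to 0.05 and from -0.36 to 0.02. The exception in BSG was the 20-week mouse of loop 1 at 0.50, whose partner in loop 2 stood at -0.15, while the GSG mice stood at -0.48 and -0.33. That mouse was high on the array against 14 weeks, which read 1.205. The fitted changes at 20 weeks were 0.175 ± 0.23 (95% interval -0.30 to 0.65) in BSG and -0.41 ± 0.23 (-0.88 to 0.07) in GSG, with an adjusted p of 0.464 in GSG and 0.784 for the strain difference.

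*Hsph1* (HSP110), the nucleotide exchange factor of HSP70, lay above 0 in all 16 later BSG mice. Loop 1 ran from 0.21 to 0.94 (median 0.66) and loop 2 from 0.03 to 0.33 (median 0.22). In GSG the loops took opposite sides at every age, loop 1 from 0.001 to 0.34 and loop 2 from -0.27 to -0.003. All 16 mice above 0 were found for 1.98% of all oligonucleotides in BSG, and the 8 mice of a loop share the 1-week mouse they are set against, so they are not 8 separate observations. At 4 weeks the BSG change was 0.50 ± 0.22 (unadjusted p = 0.0332), and at 20 weeks, where the mice stood at 0.67 and 0.26, it was 0.47 ± 0.17 (95% interval 0.12 to 0.82, unadjusted p = 0.0105, adjusted p = 0.226, limma). The GSG mice stood at 0.05 and -0.003, and the GSG change was 0.02 ± 0.17 (-0.32 to 0.37). The strain difference of -0.44 ± 0.24 had an adjusted p of 0.772.

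For the organelle chaperones the 2 BSG loops parted, while the GSG loops lay closer together. *Hsp90b1* (GRP94), whose window holds the ER stress elements printed above, stood at 0.28 at 2.5 weeks and 1.80 at 20 weeks in BSG loop 1, above 0 in all 8 later mice,, while BSG loop 2 lay between -1.02 and -0.20 at every age. In GSG 13 of 16 later mice lay below 0, and at 20 weeks the mice stood at -0.60 and -0.55. The fitted change was 0.67 ± 0.40 in BSG (95% interval -0.145 to 1.49) and -0.58 ± 0.40 in GSG (-1.39 to 0.24). The strain difference of -1.25 ± 0.56 was the largest among the members (unadjusted p = 0.0351, adjusted p = 0.641, limma). Without BSG loop 1 the BSG change was -0.46 and the difference -0.12, and without BSG loop 2 they were 1.80 and -2.38. These BSG changes repeat the 20-week mouse of the loop that is kept.

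*Hspd1* (HSP60) had the same division of the BSG loops. In BSG loop 1 its values ran from 0.92 at 2.5 weeks to 2.60 at 4 weeks and stood at 1.43 at 20 weeks, whereas BSG loop 2 ran from -1.01 to -0.03 and stood at -0.495. The gap between the BSG mice of an age reached 3.27 at 8 weeks. In GSG 15 of 16 later mice lay below 0 (loop 1 from -0.91 to 0.15, loop 2 from -0.64 to -0.005), and at 20 weeks the mice stood at -0.52 and -0.64. The fitted changes were 0.465 ± 0.45 (95% interval -0.46 to 1.39) in BSG and -0.58 ± 0.45 (-1.50 to 0.34) in GSG, with adjusted p-values of 0.857 and 0.654. Without BSG loop 1 the BSG change is that of the loop 2 mouse alone, -0.495, on the side of the GSG mice. In BSG loop 1 *Hspd1* read highest at 1.16 for 2.5 against 1 week and 1.92 for 4 against 2.5 weeks. The duplicate spots of these arrays correlated at 0.708 and 0.679. On that loop's arrays of 8 against 6, 10 against 8, 12 against 10 and 14 against 12 weeks the correlations were 0.244, 0.024, -0.096 and 0.193. The value of each mouse rests on all 9 arrays of its loop. The division was also seen outside the organelles: 9 of the 48 oligonucleotides of other chaperones lay above 0 throughout BSG loop 1 and below 0 throughout BSG loop 2, where 5.2% of all oligonucleotides were opposed in either direction, and 0 of 48 were opposed in GSG. *Hspa4*, of the HSP110 family and named after its values were seen, was among them and stood at 1.56 and -0.39 in the BSG mice at 20 weeks.

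**Figure D2:**
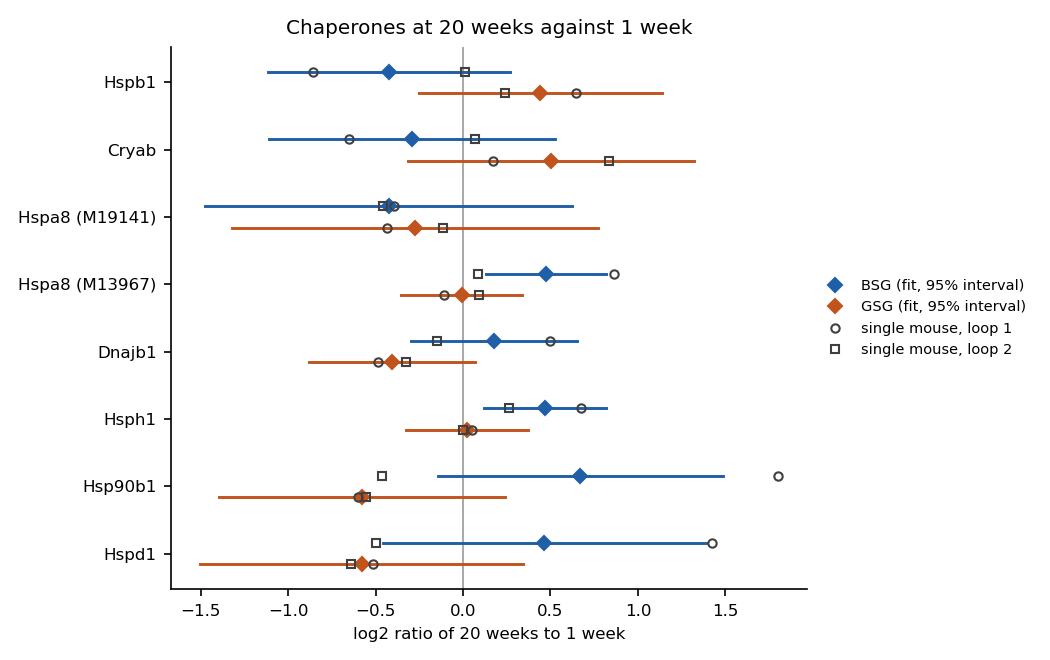
Log2 ratio of 20 weeks to 1 week (x axis) for each oligonucleotide (y axis), as the fitted value with its 95% interval (BSG in blue, GSG in orange) and the single mice of loop 1 (circles) and loop 2 (squares). The single BSG mice of *Hsp90b1* stood at 1.80 and -0.46 and those of *Hspd1* at 1.43 and -0.495, and none of the 8 oligonucleotides passed the test in either strain.

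The strains were compared directly for the members as for all oligonucleotides. At 20 weeks the mice of the strains did not overlap for 6 of the 8 oligonucleotides, beside 35.8% of all oligonucleotides. GSG lay above BSG for *Hspb1* and *Cryab* and below BSG for *Dnajb1*, *Hsph1*, *Hsp90b1* and *Hspd1*. None of these differences passed limma's test of the strain difference from 1 to 20 weeks, which called 0% of all oligonucleotides. The temporal Hotelling test, which fits a quadratic over the time points in each strain and compares the curves, also called 0%, with 358 of 8129 oligonucleotides at an unadjusted p under 0.05. The smallest unadjusted p of a member in that test was 0.135 for *Hsp90b1*. With limma's F test over the strain by age terms, it was 0.277 for *Hspa8* (M13967). The count of 0% departs from the paper, whose own temporal test lists genes with BSG against GSG P-values under 0.05. Its methods state that the P-values of all tests were adjusted by Benjamini-Hochberg, as was done here. Why the results differ was not tested.

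Each loop returned to its starting mouse, so the 9 log2 ratios around it would sum to 0 without error or dye offset. For 6 of the 8 oligonucleotides the sum was above 0 in all 4 loops, as it was for 28% of all oligonucleotides. It ran from 1.78 to 3.03 for *Hspb1*, from 1.28 to 3.62 for *Cryab*, from 1.60 to 3.99 for *Hspa8* (M19141), from 2.18 to 3.797 for *Hspd1*, from 0.70 to 1.999 for *Dnajb1* and from 0.74 to 1.99 for *Hsp90b1*. Per array this came to 0.326 for *Cryab* and 0.325 for *Hspd1*, at the 97.5th percentile of all oligonucleotides. The sums of *Hspa8* (M13967) and *Hsph1* took both signs. Because the array that closes a loop runs from 20 weeks back to 1 week, an offset equal on all arrays of a loop cancels in the fitted changes, but a ratio read from 1 array contains it. With a dye term in the fit, the members' changes at 20 weeks were the same and 0 of 128 member tests were called, the smallest adjusted p being 0.137.

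**Figure D3:**
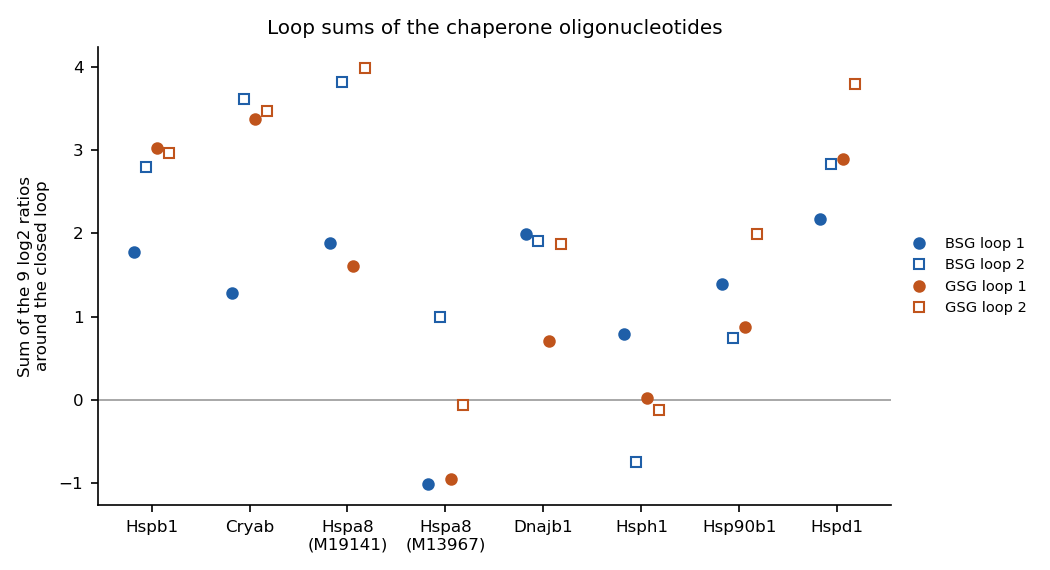
Sum of the 9 log2 ratios around each closed loop (y axis) for the 8 oligonucleotides (x axis), with BSG in blue, GSG in orange, loop 1 filled and loop 2 open. The 4 sums lay above 0 for all but *Hspa8* (M13967) and *Hsph1*.

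The members had no common direction. At 20 weeks 5 of the 8 oligonucleotides lay above 0 in BSG and 3 in GSG, with a median log2 ratio of 0.32 in BSG and -0.14 in GSG, beside -0.02 and -0.01 over all oligonucleotides. Pairs were compared over 2 sets of 16 arrays, within each of which no mouse occurs again, as a description. The arrays still share loops and the dye orientation. The small heat shock proteins *Hspb1* and *Cryab* correlated at r = 0.374 (rho = 0.432) in the first set and r = 0.787 (rho = 0.732) in the second, and their log2 ratios had the same sign on 13 and 12 of 16 arrays. *Hsp90b1* and *Hspd1* correlated at r = 0.445 (rho = 0.521) and r = 0.67 (rho = 0.756), with the same sign on 13 and 11 arrays. Genes whose loop sums lie above 0 tend to read above 0 on single arrays, so shared signs alone do not show that 2 genes move together. *Hspb1* and *Dnajb1* had the same sign on 16 of 16 arrays of the second set at r = 0.229 (rho = 0.485). The lowest correlation of the first set was that of *Cryab* with *Hsph1*, at r = -0.798 (rho = -0.747), against r = -0.205 (rho = -0.341) in the second. The lowest of the second set was that of *Hspb1* with *Hspa8* (M19141), at r = -0.655 (rho = -0.612), against r = -0.297 (rho = -0.224) in the first.

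Over all 36 arrays, in which each mouse occurs on 2 arrays, the oligonucleotides of other genes most like a member were named where the highest r reached 0.7. *Hspb1* was followed by *Rai14*, which encodes an actin-associated ankyrin repeat protein, at r = 0.941 (rho = 0.895), with r = 0.935 on the 18 arrays of loops 1 and 0.957 on the 18 of loops 2. *Usp18* (r = 0.731) and *Rasd1* (0.702) came next. *Cryab* was followed by *Bag3*, the co-chaperone that joins small heat shock proteins to HSP70, at 0.781 (0.823 in loops 1 and 0.684 in loops 2). For *Bag3* rho was 0.59, and r was 0.652 on the 27 arrays with concordant duplicates. Then came *Psmd4* (0.733), a proteasome subunit, and *Rbx1* (0.732), a ubiquitin ligase subunit. These 2 stood at 0.6 and 0.476 in loops 2, with rho of 0.621 and 0.614.

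For *Hspa8* (M19141) the nearest were *Cct5* (0.875) and *Tcp1* (0.848), subunits of the cytosolic chaperonin, and *Casq1* (0.838), the calcium store of fast fibres. For *Hspd1* they were *Ncl* (0.921), the nucleolar protein nucleolin, and the J-domain proteins *Dnaja1* (0.916) and *Dnajc7* (0.879), with *Dnaja1* at 0.918 in loops 1 and 0.929 in loops 2. *Hsp90b1* had *H3f3b* (0.905), *Dhx15* (0.897) and *Ctnna1* (0.893). *Hsph1* had *Nin* (0.723), *Dnajb9* (0.722) and *Ulk2* (0.708), and of these *Nin* stood at 0.906 in loops 1 and 0.338 in loops 2, and *Dnajb9* at 0.765 and 0.658. Of the 18 genes so named, 6 were on the list of other chaperones, which held 48 oligonucleotides beside 6752 with 1 symbol in all. Each was picked for having the highest r with its member among all of these, and the count was not tested. *Dnajb1* and *Hspa8* (M13967) had none at 0.7.

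**Figure D4:**
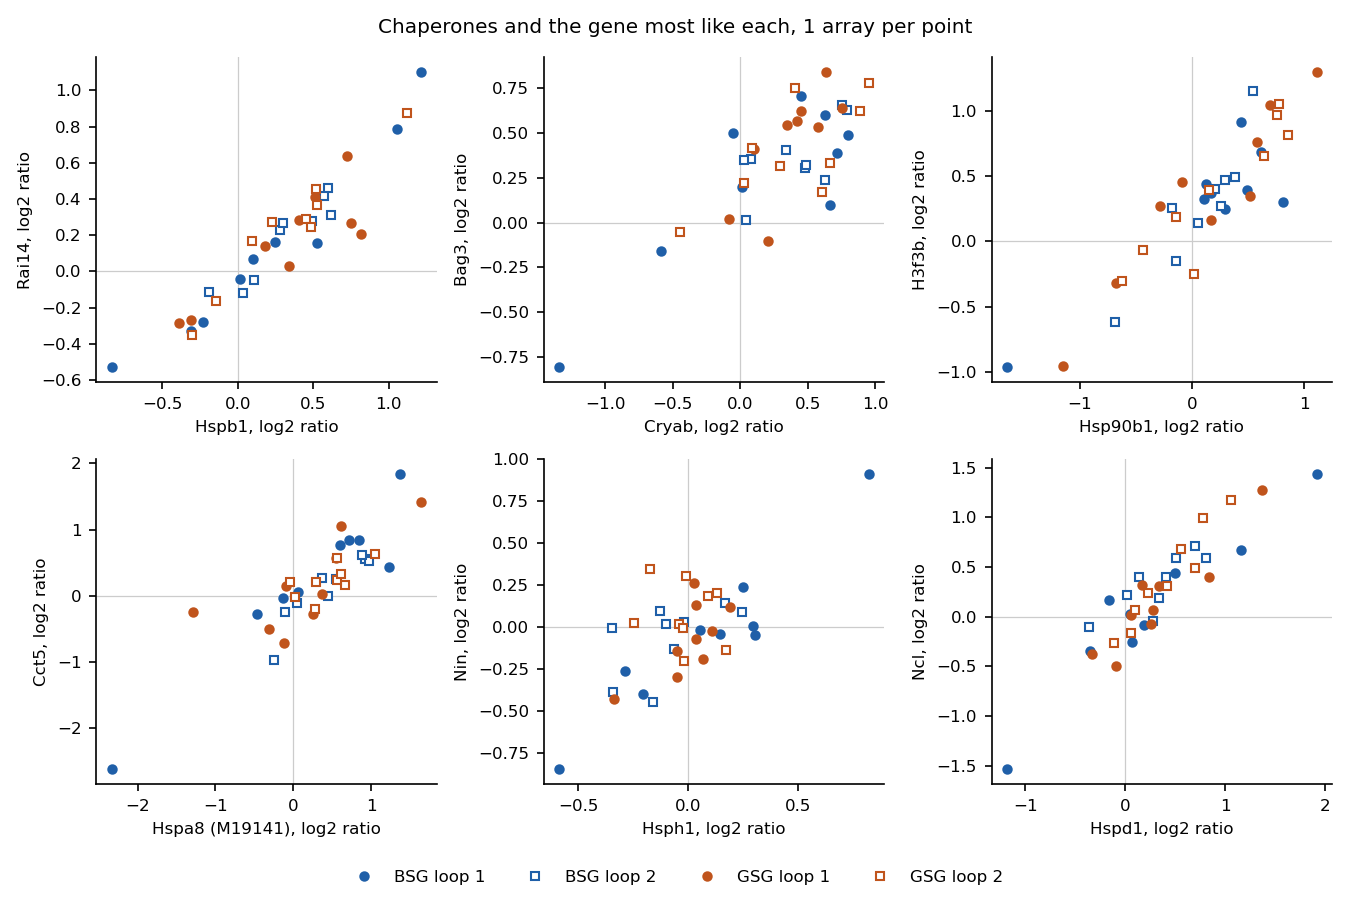
Log2 ratio of each member with a neighbour at r of 0.7 or more (x axis) against the gene most like it (y axis), 1 array per point over 36 arrays, with BSG in blue, GSG in orange, loop 1 filled and loop 2 open. *Hspb1* and *Rai14* lay along a line in every loop (r = 0.941), whereas for *Hsph1* and *Nin* the r of 0.723 was 0.338 on the arrays of loops 2 alone.

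The list of other chaperones held 65 genes, of which 47 were measured by 48 oligonucleotides. At 20 weeks 1 of the 48 rose and 0 fell in BSG, and 0 rose and 1 fell in GSG, with medians of -0.02 and -0.16. A single call among 48 is close to the background of 1.28% in BSG and 3.74% in GSG and says nothing particular about the list. The gene that rose was *Dnajb9*, a J-domain protein of the endoplasmic reticulum induced when unfolded proteins collect there. Its BSG mice stood at 2.83 and 0.52 at 20 weeks and its GSG mice at 1.07 and 0.45, so all 4 lay above 0 and the strains overlapped. The change was 1.67 ± 0.375 in BSG (adjusted p = 0.0237, limma) and 0.76 ± 0.375 in GSG (adjusted p = 0.353), and the difference did not pass (adjusted p = 0.802). In BSG loop 1 *Dnajb9* ran from 0.85 to 2.83 over the later ages and in BSG loop 2 from -0.16 to 0.66. Without BSG loop 1 the BSG change was 0.52 and the call was lost (adjusted p = 1), as it was without either GSG loop (0.104 and 0.093), with 1 value per mouse (0.136), with equal spread (0.22), with second spots alone (0.0515) and without the discordant arrays (0.127).

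The gene that fell was *Calr* (calreticulin), the calcium-binding lectin chaperone of the same compartment. Its GSG mice stood at -0.645 and -0.72 at 20 weeks and its BSG mice at -0.22 and -0.61. The change was -0.68 ± 0.17 in GSG (adjusted p = 0.0234) and -0.42 ± 0.17 in BSG (adjusted p = 0.325), with an adjusted p of 0.871 for the difference. The call was lost without BSG loop 2 (adjusted p = 0.0676), without either GSG loop (0.196 and 0.442), with arrays scaled to equal spread (0.134) and with first spots alone (0.174). In BSG all 16 later mice lay below 0, from -0.98 to -0.11, as was found for 3.94% of all oligonucleotides. In GSG loop 2 the values lay between -0.04 and 0.22 up to 10 weeks and between -0.72 and -0.54 from 12 weeks on. *Hspa1a*, the near-identical copy of the unmatched *Hspa1b*, changed by 0.21 ± 0.18 in BSG and 0.13 ± 0.18 in GSG (adjusted p = 0.791 and 0.854), and signals of the 2 transcripts on this oligonucleotide may not be separable.

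By role, the 16 oligonucleotides of the cytosolic HSP70 system had medians of 0.13 in BSG and -0.18 in GSG, the 10 ER chaperones 0.06 and -0.12, the 8 cytosolic chaperonin subunits -0.08 and -0.12, the 5 of the cytosolic HSP90 system -0.39 and -0.32, and the 4 further small heat shock proteins -0.313 and -0.085. The 3 mitochondrial chaperones stood at -0.10 and 0.11 and the 2 heat shock factors at 0.003 and -0.33. Beyond *Dnajb9* and *Calr*, none of them passed the test.

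**Figure D5:**
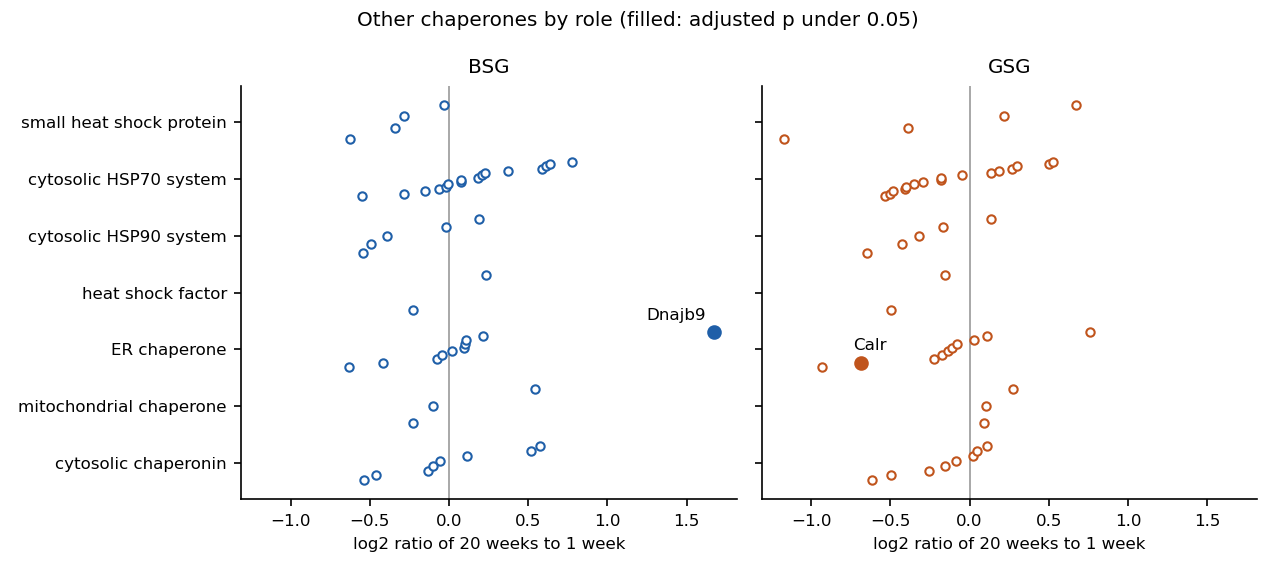
Log2 ratio of 20 weeks to 1 week (x axis) for the 48 oligonucleotides of other chaperones by role (y axis), BSG left and GSG right, with an adjusted p under 0.05 filled. *Dnajb9* in BSG (1.67) and *Calr* in GSG (-0.68) were the filled points.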

How the data were processed

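Quadriceps RNA of 36 mice was linearly amplified to aminoallyl-UTP cRNA and hybridised on 36 dual-channel arrays carrying mouse 65-mers, each spotted in duplicate. After GenePix scanning, the authors normalised for position, dye and array (all.norm, smida) and deposited log ratios, read here as log2 of Cy5 over Cy3. The array number limits the precision. The 2 spots of an oligonucleotide were averaged (8129 oligonucleotides, 6752 with 1 symbol, 7 with several, 1370 with none). No value was missing, and none was filtered or normalised again. Array medians lay between -0.06 and 0.06.

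limma (version 3.58.1, R 4.3.3; lmFit and eBayes) was fitted to all 36 arrays with 8 parameters per strain, the later ages against 1 week, sharing 1 spread per oligonucleotide, and p-values were adjusted by Benjamini-Hochberg over all oligonucleotides. The spread is that between arrays, and 2 arrays share each mouse, so a fit on 1 value per mouse was an alternative. Values of single mice came from least squares within a loop, and which arrays form a loop was read from the numbering of the sample titles. The temporal Hotelling test used a polynomial of degree 2 and 1 variance per strain, or 1 pooled over both strains where a loop was left out. Scripts were tested on simulated data. Figures used Python 3.11.15 and matplotlib 3.10.9.

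The members and the lists (other chaperones, macrophage, fibroblast matrix, slow fibre, fast fibre and newborn muscle genes) were chosen with earlier results of these data known. Named were all measured members, other chaperones called at 20 weeks (up to 6 per strain) or by a strain test, genes of newborn muscle, and for each member the 3 oligonucleotides with the highest r where the first reached 0.7. *Hspa1a* was named after its values were seen, as the copy of *Hspa1b*. Alternatives were 1 value per mouse, a dye term, median centring, equal spread, each loop left out, loops as a random replicate block, single spots, arrays with concordant duplicates, and trended robust eBayes; a polynomial of degree 4 and a non-temporal test for the Hotelling test. The WT and MDX arrays and qPCR of the study were not analysed here.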

Additional observations from a re-analysis of the deposited data

Results flagged for a closer look

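For 2 of the 64 member and age combinations, both mice of a strain lay above their 1-week mice and both mice of the other strain below, beside 10% of the 65032 combinations of all oligonucleotides. *Hspb1* at 14 weeks stood at -0.68 and -0.29 in the BSG mice and at 0.47 and 0.05 in the GSG mice, a difference of 0.74 ± 0.63 (SE, unadjusted p = 0.249, adjusted p = 1, limma). *Cryab* at 2.5 weeks stood at -0.19 and -0.32 in BSG and at 0.05 and 0.02 in GSG, a difference of 0.29 ± 0.56 (unadjusted p = 0.612, adjusted p = 1). Groups of 2 mice were too small for an outlier test.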

How the results depend on the processing

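No member was called at 20 weeks under any of the alternatives in GSG, and in BSG 0 to 1 was called with single loops left out (*Hspa8* M13967, without BSG loop 2). Counts over all oligonucleotides varied widely. In BSG at 20 weeks (104) there were 16 with 1 value per mouse, 236 with a dye term, 10 with arrays scaled to equal spread, 47 and 42 with first and second spots, 19 without discordant arrays, and 1 to 266 with a loop left out. In GSG (304) there were 145 with 1 value per mouse, 96 with equal spread, 153 with first spots, and 83 to 387 with a loop left out. Any-age calls in BSG (8) numbered 25 with a dye term, 4 with equal spread, 5 and 2 with first and second spots, 1 without discordant arrays, 19 with trended robust eBayes, and 1 to 62 with a loop left out. In GSG (48) they numbered 82 with 1 value per mouse, 112, 14, 14 and 30, 12 and 87 with the same settings in that order, and 16 to 239 with a loop left out. The strain difference at 20 weeks (0) gave 4 with second spots and 0 to 127 with a loop left out, and the temporal test (0) 2 to 75. The cause of these shifts was not tested. With a loop left out there were fewer arrays and 1 mouse per age in that strain, so those counts measure no spread between its mice. The temporal test then took 1 variance pooled over both strains in place of 1 per strain, so its counts there come from a different statistic.

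With the loops as a random replicate block (correlation 0.107), 190 and 464 oligonucleotides were called at 20 weeks and 20 and 100 at any age in BSG and GSG, and no member. Equal loop numbers in the 2 strains pair no mice.

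With a loop left out, the change of its strain is that of the other loop, so the following ranges repeat the single mice. Changes at 20 weeks in BSG ran from -0.86 to 0.014 for *Hspb1*, -0.653 to 0.066 for *Cryab*, -0.46 to 1.80 for *Hsp90b1*, -0.15 to 0.50 for *Dnajb1* and -0.495 to 1.43 for *Hspd1*. In GSG they ran from -0.107 to 0.093 for *Hspa8* (M13967) and -0.003 to 0.051 for *Hsph1*. *Hspa8* (M13967) in GSG was 0.17 with first spots and 0.049 without discordant arrays, and *Hsph1* in GSG -0.029 with first spots. By alternatives added after seeing the data, *Dnajb9* in BSG lost its call with 1 value per mouse (adjusted p = 0.136), equal spread (0.22), second spots (0.0515), without discordant arrays (0.127) and without either GSG loop or BSG loop 1. *Calr* in GSG lost it with equal spread (0.134), first spots (0.174), and without BSG loop 2 or either GSG loop. *Dlk1* kept its call under all of them.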
